A study of Mus musculus with 8 samples.

Results

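The respiratory chain genes of the mouse nucleus were followed across 8 libraries of embryonic lung. Members were taken by symbol: the Ndufa, Ndufb, Ndufc, Ndufs and Ndufv genes of complex I, Sdha to Sdhd of complex II, the Uqcr genes and Cyc1 of complex III, the Cox4 to Cox8 genes of complex IV and the Atp5 genes of complex V. The rule found 84 of 24487 deposited gene records, each member with 1 record. By role, 35 members belong to complex I, 4 to complex II, 9 to complex III, 18 to complex IV and 15 to complex V. Ndufa4 was counted with complex IV, where its protein sits in spite of its name. The other 3 are Cox7a2l, a factor that joins complexes III and IV into supercomplexes, and Atp5s and Atp5sl, which carry ATP synthase names and were not counted as subunits of it.

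The libraries came from C57BL/6 lungs at embryonic day 14 (E14), E16 and E17. TRAP, translating ribosome affinity purification, recovers mRNA bound to ribosomes of marked cells. Here the L10 ribosomal protein was pulled down after the mark had been induced with tamoxifen, and the series names Sox9 progenitors as the cells of interest. Wild-type lungs gave 1 TRAP library and 1 library of the whole organ at each of E14 and E17. At E16 there were 2 TRAP libraries per genotype, wild type and Sox9 mutant. The labels do not give the driver of the mark, the Sox9 alleles, or whether replicates came from separate animals, so a p-value reflects the spread among the libraries at hand, which may be technical. The series text calls the E14 reference a supernatant while its own label names whole lung homogenate, and the E16 titles also carry E13 without explanation. The unit was FPKM, fragments per kilobase of transcript, scaled to the mapped fragments of the library.

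Between 9783768 and 21500523 fragments per library lay behind the values, computed from the deposited confidence bounds. The median was 1748 to 3523 fragments per member, over the 63 members whose bounds behaved as counting error. Records under 200 bases held between 3.46% and 53.5% of a library's FPKM total, so the total itself is an uneven scale. Sox9 was at 35.9 and 36.4 FPKM in the E16 wild type and at 12.8 and 11.03 in the mutant, where it fell by 1.53 on the log2 scale (limma, adjusted p = 0.000153). Which stretch of Sox9 the mutation alters is not stated. All 9 epithelial markers listed (such as Epcam and Cdh1) rose in TRAP against whole lung, and all 8 mesenchymal markers (such as Col1a1 and Dcn) fell. Differences below are on the log2(FPKM + 1) scale, and "passed" means a limma adjusted p under 0.05 over all records tested.

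The respiratory chain passes electrons from NADH (complex I) and succinate (complex II) through complex III to oxygen at complex IV. Complexes I, III and IV pump protons, and ATP synthase, complex V, uses the gradient to make ATP. Most subunits are encoded in the nucleus, and several subunits of complex IV exist as alternative isoforms that differ between heart and skeletal muscle, lung, testis and other tissues. Nuclear respiratory factor 1 (NRF1), GA-binding protein (GABP), YY1 and the oestrogen-related receptors (ERR) are known regulators of this gene set.

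The promoters of the members, which the name rule did not use, held the motifs of these regulators more often than promoters of all genes did. RefSeq promoters (GRCm38.p6, 250 bases before to 50 bases after the start) were matched for 69 of 84 members. The NRF1 motif, searched on both strands, occurred in 16 of the 69 (23.2%), compared with 4.78% of 27025 promoters of all genes. The YY1 motif AAGATGGC occurred in 10 members (14.5%) compared with 2.88% of all. The GABP motif CCGGAAGT occurred in 5 (7.25% against 4.0%) and the ERR motif TCAAGGTCA in 2 (2.90% against 0.407%). At least 1 of the 4 motifs occurred in 29 member promoters (42.0%) and in 11.2% of all. Member promoters were also richer in G and C, with a median of 57.3% against 52.7%, and NRF1's motif is itself made largely of these bases. A match is a description of letters, not a measured binding site.

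The promoters below are shown because their genes carry the results that follow. Each line gives the 250 bases before the start, read 5′ to 3′ on the gene's strand, with NRF1 matches of either strand in capitals. Ndufs6 (chr13:73328483-73328732, minus strand) was the complex I member with the largest TRAP difference, Sdha (chr13:74350241-74350490, minus) was the complex II member with the lowest stage difference, and Cox6a1 (chr5:115348959-115349208, minus) was the most abundant member of complex IV.
Ndufs6: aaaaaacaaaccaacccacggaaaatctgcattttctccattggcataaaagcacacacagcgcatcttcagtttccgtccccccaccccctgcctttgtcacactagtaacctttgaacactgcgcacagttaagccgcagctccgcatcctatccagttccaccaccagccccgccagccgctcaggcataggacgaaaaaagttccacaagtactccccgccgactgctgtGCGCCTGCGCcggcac
Sdha: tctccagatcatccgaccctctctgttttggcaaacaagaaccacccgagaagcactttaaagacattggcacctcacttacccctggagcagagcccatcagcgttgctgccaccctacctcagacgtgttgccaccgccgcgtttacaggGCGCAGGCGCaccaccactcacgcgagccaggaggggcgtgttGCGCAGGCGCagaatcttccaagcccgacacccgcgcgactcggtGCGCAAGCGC
Cox6a1: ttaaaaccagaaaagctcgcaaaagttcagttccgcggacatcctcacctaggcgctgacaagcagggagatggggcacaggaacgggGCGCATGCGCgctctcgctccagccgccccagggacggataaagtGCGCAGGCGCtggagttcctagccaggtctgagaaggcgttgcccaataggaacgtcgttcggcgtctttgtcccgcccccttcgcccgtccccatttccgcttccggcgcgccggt
Sdha held 3 matches and Cox6a1 held 2. For Ndufs6 a YY1 match also lay past the printed bases, within the 300-base window. The printed bases of the next 3 held no match to any of the 4 motifs: Ndufb8 (chr19:44555443-44555692, minus strand) was the complex I member with the lowest mutant difference, and a YY1 match lay past them, within the 300-base window. Cox7a1 (chr7:30183921-30184170, plus strand) had the largest TRAP difference of all members, and Uqcr10 (chr11:4704345-4704594, minus) was the only member that rose in the mutant.
Ndufb8: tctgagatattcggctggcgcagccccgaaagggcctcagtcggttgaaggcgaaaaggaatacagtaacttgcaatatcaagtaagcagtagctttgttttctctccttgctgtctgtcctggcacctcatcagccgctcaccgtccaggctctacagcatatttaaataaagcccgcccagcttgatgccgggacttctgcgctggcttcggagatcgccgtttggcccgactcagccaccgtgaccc
Cox7a1: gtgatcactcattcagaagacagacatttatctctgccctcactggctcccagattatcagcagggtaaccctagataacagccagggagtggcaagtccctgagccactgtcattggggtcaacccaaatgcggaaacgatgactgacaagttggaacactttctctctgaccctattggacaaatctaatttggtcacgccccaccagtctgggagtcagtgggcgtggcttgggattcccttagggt
Uqcr10: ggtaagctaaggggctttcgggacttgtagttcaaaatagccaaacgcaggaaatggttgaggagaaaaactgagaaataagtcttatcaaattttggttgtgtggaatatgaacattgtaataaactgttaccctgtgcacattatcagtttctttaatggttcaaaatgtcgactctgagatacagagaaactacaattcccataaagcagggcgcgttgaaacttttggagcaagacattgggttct

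The members were abundant in every library. Of the 84, 80 had a mean of at least 1 FPKM, and their median level lay between 164 FPKM in E14 whole lung and 250.1 in wild-type replicate 2 at E16. Together the members made up 1.88% to 3.89% of a library's FPKM total, or 3.07% to 4.38% when records under 200 bases were left out. The highest means were those of Atp5e, the epsilon subunit of the ATP synthase head (1518 FPKM), and in complex IV Cox6a1 (1137 FPKM). In complex III Uqcr11, a small accessory subunit, led with 685 FPKM, in complex I the accessory subunit Ndufa3 with 556, and in complex II the membrane anchor Sdhc with 133. The lowest subunit above the filter was Cox7a1, at 10.9 FPKM. Median levels rose from complex II (117 FPKM) through complex I (173), complex III (325) and complex V (455) to complex IV (564). Within complex I, the 7 core subunits, which carry the electrons, had a median of 111 FPKM, below the 185 FPKM of the 28 accessory subunits.

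**Figure D1:**
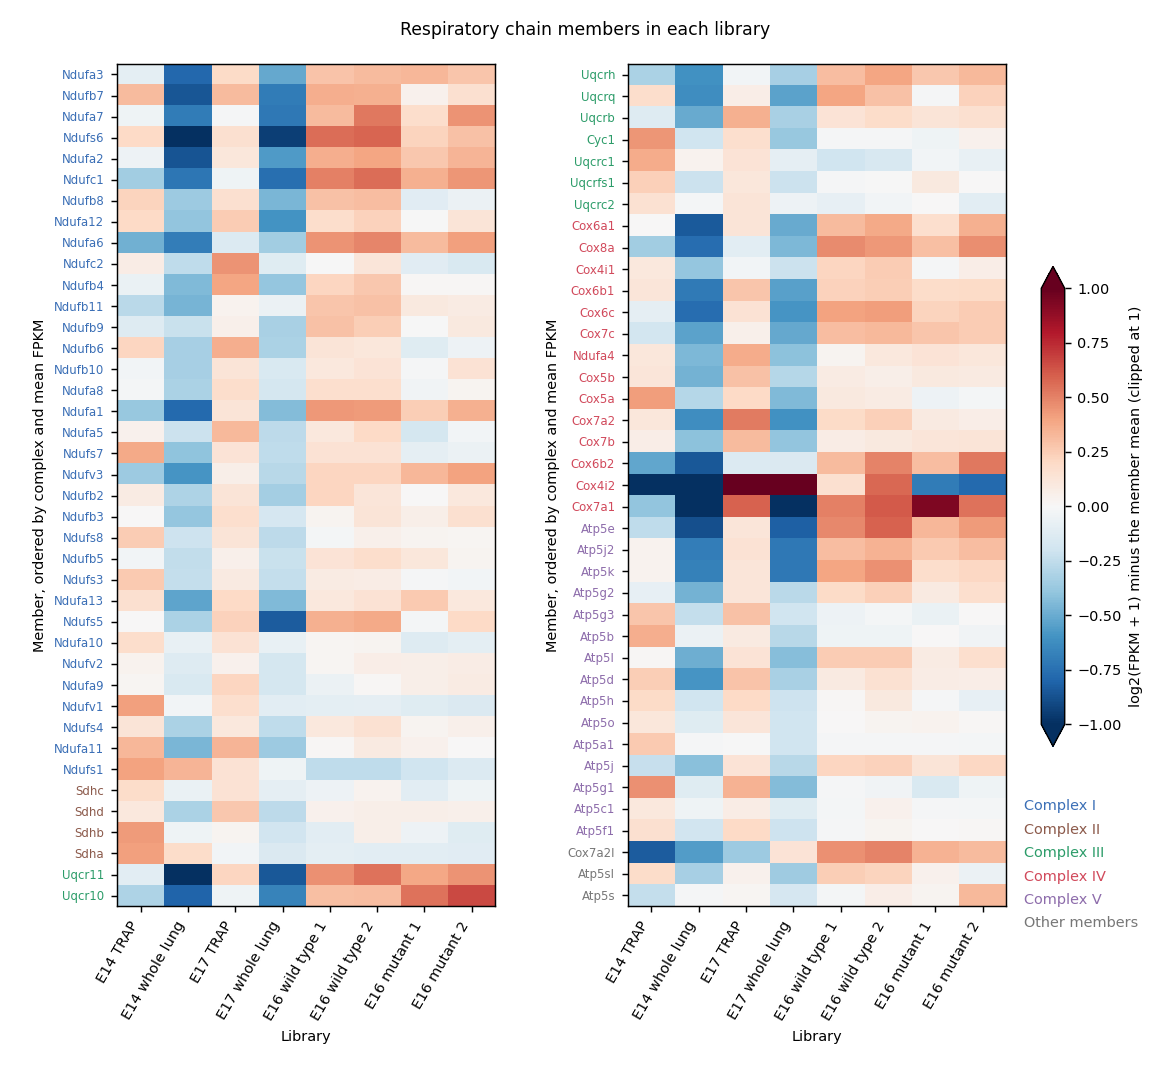
Level of 79 members with a mean of at least 1 FPKM in each of the 8 libraries (columns), as log2(FPKM + 1) minus the member's mean, in rows ordered by complex and mean level ("other members" lie outside the complexes). Whole lung columns are mostly blue (lower) and TRAP columns mostly red (higher), and Cox4i2 spans the widest range.

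The complex IV isoforms separated into abundant general forms and low or absent tissue forms. The 4 members that did not reach the filter were all tissue forms. Cox6a2, the heart and muscle form of subunit 6A, was listed at 0 in both E14 libraries and lay at 0.398 and 0.462 FPKM in E17 TRAP and whole lung, and between 0.0909 and 0.182 at E16. Cox8b, the rodent heart and muscle form of subunit 8, reached 0.974 FPKM in E17 whole lung and 0.256 in E17 TRAP and was listed at 0 elsewhere. Cox7b2 was listed at 0 in all libraries except E17 whole lung (0.122 FPKM), and Cox8c, a testis form, was listed at 0 in all 8. Their general partners were high everywhere: Cox6a1 lay between 613 and 1425 FPKM, Cox8a between 598 and 1405, and Cox7b between 122 and 203.

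Cox4i2 is the form of subunit 4 best known from lung. Its level was 7.97 FPKM in E14 TRAP, 8.65 in E14 whole lung, 65.2 in TRAP at E17 and 53.4 in whole lung at E17. The E16 wild-type libraries had 22.3 and 30.05 FPKM, and the mutant ones 11.8 and 11.2. The E17 libraries were thus the highest, the E14 libraries the lowest, and both mutant libraries lay below both wild-type ones. Its partner Cox4i1, the general form, lay between 714 and 1116 FPKM in all 8, so that Cox4i2 made up 0.788% of the pair in E14 TRAP and 6.64% in E17 TRAP. In whole lung that share was 1.20% at E14 and 6.22% at E17, and at E16 it was 2.32% ± 0.43 in the wild type and 1.20% ± 0.09 in the mutant (SD, n = 2 each).

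Cox7a1 is the heart and muscle form of subunit 7A, and Cox7a2 is the general form. Cox7a1 was at 6.77 FPKM in E14 TRAP, 2.11 in E14 whole lung, 14.4 in TRAP at E17 and 3.83 in whole lung at E17. The E16 wild type had 13.4 and 14.6 FPKM and the mutant 18.5 and 13.8, groups that overlap. Cox7a2 lay between 167 and 369 FPKM, and Cox7a1 made up from 1.24% of the pair in E14 whole lung to 6.30% in mutant replicate 1. Cox6b2, a form of subunit 6B known from testis, lay at 18.9 FPKM in E14 whole lung, 24.0 in E14 TRAP, 31.5 and 31.3 in E17 TRAP and whole lung, 43.7 and 49.5 in the E16 wild type and 43.4 and 50.6 in the mutant. It was 2.53% to 5.08% of its sum with Cox6b1, which lay between 523 and 1033 FPKM.

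ATP synthase makes its membrane ring from c subunits encoded by 3 genes, whose mature proteins are identical. Atp5g1 lay between 187 and 348 FPKM, Atp5g2 between 577 and 946 and Atp5g3 between 586 and 846. Atp5g1 was the lowest of the 3 in all 8 libraries, at 12.9% to 17.9% of their sum. Atp5g2 made up 38.9% in E14 TRAP and 42.7% in E17 TRAP, and 50.2% ± 0.41 in the E16 wild type against 48.9% ± 0.07 in the mutant (SD, n = 2 each). Atp5g3 made up 43.2% and 41.5% in E14 and E17 TRAP, and 36.4% ± 0.02 in the wild type against 37.8% ± 0.15 in the mutant.

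**Figure D2:**
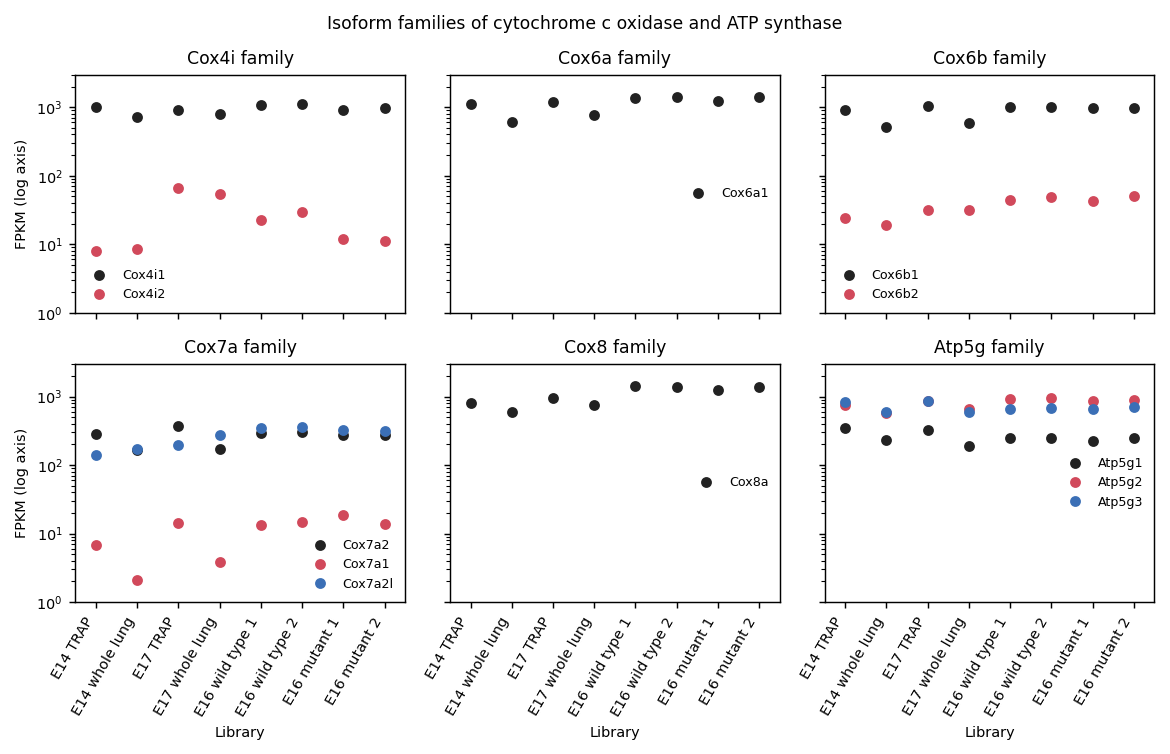
FPKM (log axis) of the expressed members of 6 isoform families in each of the 8 libraries, 1 point per library. Cox4i2 is highest in the E17 libraries (65.2 and 53.4 FPKM), Cox7a1 is lowest in whole lung (2.11 and 3.83), and Cox4i1, Cox6a1, Cox6b1 and Cox8a stay at 523 FPKM or above.

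The first comparison asked how the marked cells' ribosome-bound mRNA differed from the mRNA of whole lung. Of the 80 members, 56 rose in TRAP, 1 fell and 23 did not pass, whereas over all 12320 records tested 23.6% rose and 17.1% fell. The median member difference was 0.44, against 0.05 over all records, and 78 of 80 were above 0. Every complex took part, with 25 of 35 rising in complex I, 2 of 4 in complex II, 6 of 9 in complex III, 11 of 14 in complex IV and 11 of 15 in complex V. No member of complexes I to V fell. Whole lung is a mixture of cells, in which fewer cells of a type and less RNA per cell cannot be told apart. TRAP also selects mRNA bound to ribosomes, and the part of this selection cannot be told apart from that of cell type. With 1 library per stage and fraction, the stages stood in as replicates, so the spread in the test is the disagreement of E14 and E17. Most of that spread was taken from all records rather than from the member itself (4.47 prior against 1 residual degree of freedom).

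Cox7a1 showed the largest difference: the values given above were higher in TRAP at both stages, and it rose by 1.50 (SE 0.16, limma adjusted p = 0.0023). This difference rests on few reads, since 16 and 56 inferred fragments lay behind Cox7a1 in TRAP and 12 and 16 in whole lung. Whole lung held 45.5 and 59.5 FPKM of the 10 cardiac muscle markers listed (such as Myh6 and Tnnt2), against 16.4 and 18.8 in TRAP. Of the 6 that could be tested, 4 fell and 1 rose in TRAP, and none of the 10 was at 0 in every TRAP library. The 6 skeletal muscle markers listed (such as Acta1 and Myog) summed to 7.37 FPKM in TRAP and 4.09 in the whole organ at E14, and to 10.96 and 5.74 at E17, mostly from Mylpf. Mylpf, a fast muscle myosin light chain, was the 1 skeletal marker that could be tested and rose by 1.17, and none of the 6 was at 0 in every TRAP library. The part of either muscle type in the Cox7a1 difference was not tested. Its general partner Cox7a2 was at 280 FPKM in E14 TRAP against 167 in whole lung, and at 369 against 169 at E17, and rose by 0.93. Ndufs6, an accessory subunit next to the NADH-oxidising arm of complex I, reached 426 FPKM in E14 TRAP, with 176 in whole lung, and 416 in E17 TRAP, with 193 in whole lung. Ndufs6 rose by 1.19 (SE 0.10, adjusted p = 0.0013), or 2.28-fold on FPKM + 1. TRAP lay above whole lung for Cox7a1, Cox7a2 and Ndufs6 at both stages.

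Uqcr11 rose by 1.02, with 297 FPKM in whole lung and 590 in TRAP at E14, and 353 and 738 at E17. In complex II the membrane anchor Sdhd rose by 0.48, while Sdha, the succinate-oxidising flavoprotein, differed by 0.17 and did not pass. Atp5j2, the small f subunit of the ATP synthase membrane part, rose by 0.79, and Atp5c1, the central stalk gamma subunit, differed by 0.17 and did not pass. The lowest difference of complex III was that of Uqcrc2, a core protein (0.18), which did not pass. Cox4i2 was the lowest of complex IV, at 0.09, and did not pass.

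Groups within the complexes also differed in count. All 5 complex IV subunits without isoforms rose, with a median of 0.67, and all 3 small membrane subunits of ATP synthase (Atp5j2, Atp5k and Atp5l) rose, with a median of 0.77. Neither of the 2 core proteins of complex III passed, while both of its electron carriers, Cyc1 (0.59) and Uqcrfs1 (0.39), rose. In complex I, 21 of 28 accessory and 4 of 7 core subunits rose, with medians of 0.46 and 0.36. Whether these groups differ from each other was not tested. Cox7a2l was the single member that fell: E14 TRAP had 141 FPKM and whole lung 170.0, and E17 TRAP had 195 and whole lung 276, a difference of -0.38 (SE 0.10, adjusted p = 0.032).

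Each stage alone, with no test, gave similar medians: 0.43 at E14 and 0.44 at E17. At least 2-fold higher in TRAP were 3 members at E14 (6.01% of all records were) and 6 at E17 (4.83% of all), and none was at least 2-fold lower (9.43% and 8.91% of all). The difference was larger for short transcripts: it was 0.58 in median for the 40 shorter members and 0.37 for the 40 longer. Across the 80 members, which share the same 4 libraries, Spearman's rho with relative transcript length, inferred from the FPKM that 1 fragment is worth, was -0.45, and across all records it was -0.30. The part of transcript length in the TRAP difference was not tested. With each library rescaled to a common FPKM total, 1 member (Cox7a1) rose and none fell. Of all 12320 records 547 rose and 2863 fell, and their median moved to -0.29.

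**Figure D3:**
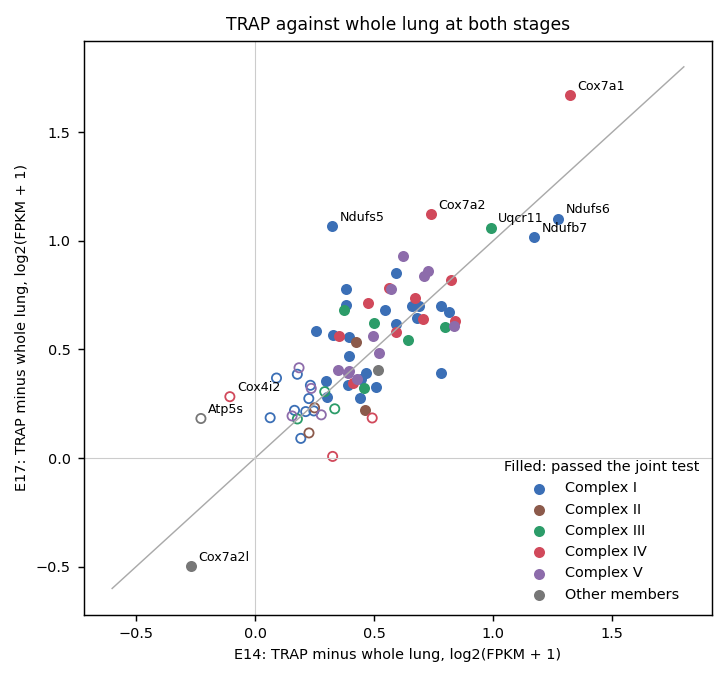
TRAP minus whole lung on the log2(FPKM + 1) scale at E14 (x) and E17 (y), 1 point for each of 79 members, coloured by complex and filled where the joint test passed; the grey diagonal marks equal differences. Most points lie above 0 on both axes, Cox7a1 (1.32 and 1.67) is farthest out, and Cox7a2l (-0.27 and -0.50) lies below 0 on both.

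The stage comparison asked what differed between E17 and E14. Few members passed: 5 of 80 rose (9.51% of all records did), none fell (6.36% of all did) and 75 did not pass. The median was 0.06 against 0.01 over all records. At an unadjusted p under 0.05, 13 were higher and 4 lower. The 5 that rose were Cox4i2 (2.69), Cox7a1 (0.81), Cox7a2l (0.58), Cox6b2 (0.54) and Ndufa1 (0.43), so 3 of them are tissue forms of complex IV.

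Cox4i2 went from 7.97 to 65.2 FPKM in TRAP and from 8.65 to 53.4 in whole lung, a rise of 2.69 (SE 0.13, limma adjusted p = 0.0016), or 6.45-fold on FPKM + 1. E17 lay above E14 in both fractions, by 2.88 and 2.49, on 744 against 54 inferred fragments in TRAP and 649 against 147 in whole lung. Cox4i2 (chromosome 2, 152754173 to 152765037, mm10) shares 6306 bases with Bcl2l1, an apoptosis inhibitor that rose by 0.48, and the library kit is not stated to keep strand, so reads in the shared stretch cannot be told apart. Pericytes and smooth muscle, cells of the vessel wall, are a known site of Cox4i2 in lung. The summed level of 10 of their markers was 102 and 44.6 FPKM in E14 and E17 TRAP, and 391 and 380 in whole lung, with 1 of the 10 higher at E17 (Cspg4, 1.05), 3 lower and none at 0 in every TRAP library. Their part in the Cox4i2 difference was not tested. Ndufa4l2, a relative of Ndufa4 outside the symbol rule, was at 3.93 FPKM in E14 and 78.1 in E17 whole lung, and at 1.62 and 14.8 in TRAP. It rose by 3.30 with stage and fell by 1.62 in TRAP.

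Cox7a1 rose by 0.81 (SE 0.16, adjusted p = 0.033), with the levels and the few fragments given above. Ndufa1, a small X-linked accessory subunit of complex I, went from 128 to 183 FPKM in TRAP and from 97.4 to 124 in whole lung (0.43, SE 0.10, adjusted p = 0.041). Cox7a2l went from 141 to 195 FPKM in TRAP and from 170.0 to 276 in whole lung (adjusted p = 0.026). For each of the 3, E17 lay above E14 in both fractions.

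Core and catalytic subunits lay mostly below 0, and none passed. In the joint fit all 7 core subunits of complex I lay below 0 (median -0.08), whereas 24 of its 28 accessory subunits lay above 0 (median 0.08). By fraction, 6 of the 7 core subunits lay below 0 in TRAP and 4 in whole lung. Of the 28 accessory subunits, 4 lay below 0 in TRAP and 10 in whole lung. Sdha was at 80.1 and 58.9 FPKM in E14 and E17 TRAP and at 68.4 and 54.3 in whole lung, a difference of -0.38 (adjusted p = 0.051), and Sdhb, the iron-sulphur subunit, differed by -0.27. Ndufs1, the core subunit with the lowest stage difference of complex I, differed by -0.32, Cyc1 by -0.22, Cox5a by -0.19 and Atp5b, the catalytic beta subunit of ATP synthase, by -0.25. The highest of their complexes, none of which passed, were Uqcrb in complex III (0.33), Atp5j in complex V (0.25) and Sdhd in complex II (0.11), and the 5 small subunits of complex III had a median of 0.28.

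Fraction by fraction, with no test, 55 members were higher and 25 lower at E17 in TRAP (median 0.12), and 48 were higher and 32 lower in whole lung (median 0.04). At least 2-fold higher was 1 member in each fraction, Cox4i2 (4.55% and 4.67% of all records were), and none was at least 2-fold lower (1.82% and 1.23% of all). The 40 shorter members had a median stage difference of 0.18 and the 40 longer ones -0.02, with Spearman's rho of -0.55 across the 80 members and -0.14 across all records. In complex I, 7 of 7 core and 11 of 28 accessory subunits were among the longer members, and the part of length in the difference was not tested. With libraries rescaled over records of at least 200 bases, 4 members rose and 2 fell (Sdha by -0.46 and Sdhb by -0.35). Of all 12320 records 1105 rose and 1361 fell. With a common total 1 member rose and none fell, beside 517 and 608 of all records, the median of all records being -0.23.

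**Figure D4:**
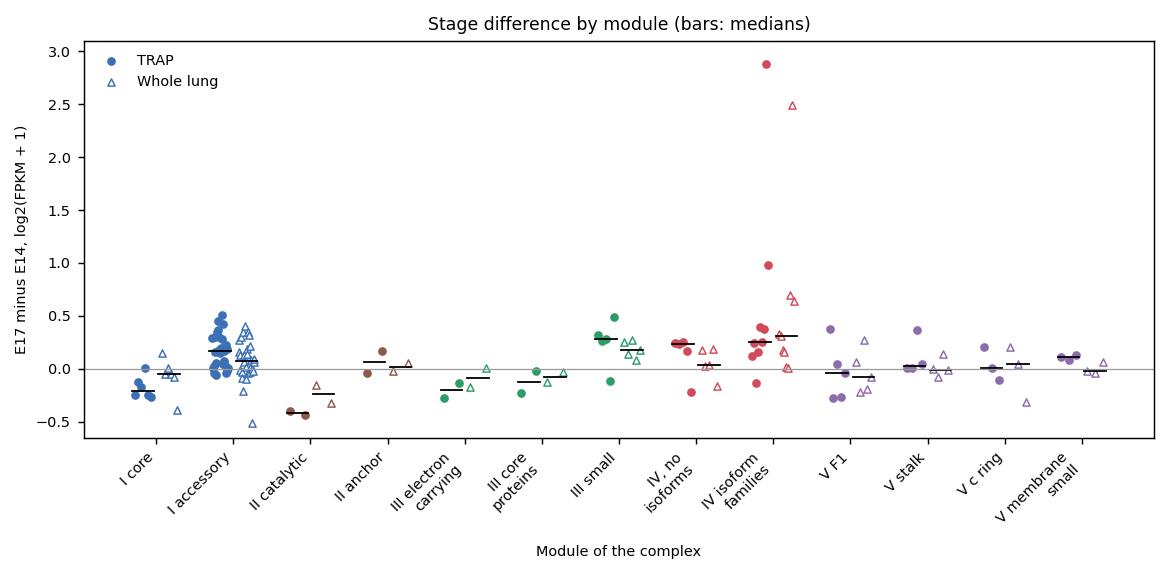
E17 minus E14 on the log2(FPKM + 1) scale for the plotted members of complexes I to V, grouped by module within its complex, in TRAP (filled circles) and whole lung (open triangles), with black bars for medians of the plotted members. Core subunits of complex I and catalytic subunits of complex II lie mostly below 0, small subunits of complex III mostly above 0, and Cox4i2 stands at 2.88 and 2.49.

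The last comparison asked what differed in the marked cells when Sox9 was mutated. Members were lower more often than higher: 16 of 80 fell (14.3% of 11872 records did), 1 rose (17.4% of all did) and 63 did not pass, with a median of -0.07 against 0.01 over all records. At an unadjusted p under 0.05, 24 were lower and 3 higher. Complex I held 11 of the 16 (of 35 members), complex IV 3 of 14 and complex V 1 of 15, and none of complex II or III fell. Apart from Cox4i2, the members that fell differed by -0.39 to -0.17. Cell type markers moved in the same comparison. All 5 distal tip markers listed fell (Sox9 itself, Etv5, Id2, Sftpc and Wnt7b, median -2.69), and summed to 4549 and 5245 FPKM in wild-type libraries, compared with 301.3 and 301.2 in mutant ones. Of the 9 epithelial markers 7 rose and 1 fell, and their sums were 2184 and 2159.9 FPKM in wild-type libraries, compared with 2682 and 2573 in mutant ones. Of the 5 endothelial markers tested 2 fell, and of the 2 mesothelial ones 1 rose. The part of the cells' makeup in the members' differences was not tested.

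Cox4i2 fell most, by 1.11 (SE 0.14, limma adjusted p = 0.0026), from 26.2 ± 5.50 to 11.5 ± 0.449 FPKM (SD, n = 2 each). Both mutant libraries lay below both wild-type libraries, and the wild-type pair differed by 0.42, the widest replicate gap of any member. Bcl2l1, which overlaps it, rose by 0.44. The pericyte and smooth muscle markers summed to 64.7 and 92.8 FPKM in wild-type libraries and 55.5 and 75.1 in mutant ones, none of the 8 that could be tested passed, and their part in the result was not tested. Cox4i1 fell by 0.21, from 1083 and 1116 to 923 and 975 FPKM. In complex IV Cox6c, a small subunit without isoforms, fell by 0.17, and Cox7a1 was the highest, at 0.18 (adjusted p = 0.35). The cardiac muscle markers summed to 14.2 and 17.5 FPKM in wild-type libraries and 47.1 and 41.6 in mutant ones, where 1 of the 4 tested rose, and the skeletal ones to 8.31 and 9.003 in wild-type libraries and 4.78 and 5.65 in mutant ones, where Mylpf fell by 0.65. The part of both in the level of Cox7a1 was not tested.

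In complex I, 10 of 28 accessory subunits fell and 1 of 7 core subunits did. All 7 core and 11 of 28 accessory subunits were among the longer members. The 40 shorter members had a median mutant difference of -0.08 and the 40 longer ones -0.04. Spearman's rho with relative transcript length was 0.29 across the 80 members and 0.17 across all records. The part of length in the mutant difference was not tested. Ndufb8, an accessory subunit of the membrane arm (chromosome 19, 44550254 to 44555415, mm10), had 367 and 371 FPKM in the wild-type libraries and 277 and 286 in the mutant ones. It fell by 0.39 (SE 0.05, adjusted p = 0.0023), with no overlap between the groups. Ndufs6 went from 549 and 555 FPKM to 434 and 455 in the mutant, and fell by 0.31 (SE 0.05, adjusted p = 0.0064). The other accessory subunits that fell were Ndufb4, Ndufb6, Ndufb7, Ndufb9, Ndufb11, Ndufa5, Ndufa8 and Ndufs5, and the core subunit was Ndufs7, an iron-sulphur protein. Ndufs5 is uncertain, since the record of its near-copy BC002163 covers it and had 108 and 93.7 FPKM in wild-type libraries and 112 and 109 in mutant ones. Ndufv3, an accessory subunit of the NADH-oxidising arm, was the highest of complex I, at 0.15 (adjusted p = 0.061).

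Uqcr10, a small subunit of complex III (chromosome 11, 4701968 to 4704344, mm10), was the member that rose. Wild-type libraries had 732 and 735 FPKM and mutant ones 865 and 938, with no overlap (0.30, SE 0.06, adjusted p = 0.014). Uqcrq, another small subunit, was the lowest of complex III, with 604 and 563 FPKM in wild-type libraries and 454 and 539 in mutant ones (-0.24, adjusted p = 0.10). In complex II none of the 4 passed, with Sdhb lowest at -0.07 and Sdhd highest at 0.0038. In complex V the small e subunit Atp5k fell by 0.23, from 1207 and 1260 to 1035 and 1062 FPKM, and Atp5b was the highest, at 0.03. Of the members outside the complexes, Atp5sl fell by 0.24.

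Over the 80 members, 44 had both mutant libraries below both wild-type ones (33.3% of all records did) and 10 had both above (36.8% of all). Replicates were close: the median absolute difference between replicates was 0.04 in the wild type and 0.06 in the mutant, against 0.08 in each over all records. Without wild-type replicate 1 the count that fell dropped to 3 (Cox4i2, Ndufb8 and Ndufs6), and without wild-type replicate 2 the same 3 remained, with Uqcr10 no longer passing in either case. Without mutant replicate 1, 7 fell. The split also depended on scale. With libraries rescaled over records of at least 200 bases, 4 rose and 7 fell, beside 2634 and 1186 of all 11872 records. Centred on the median of all records, 1 rose and 26 fell, beside 1749 and 2336 of all records. With a common total no member passed, while 167 of all records rose and 58 fell, and the median of all records was 0.41.

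**Figure D5:**
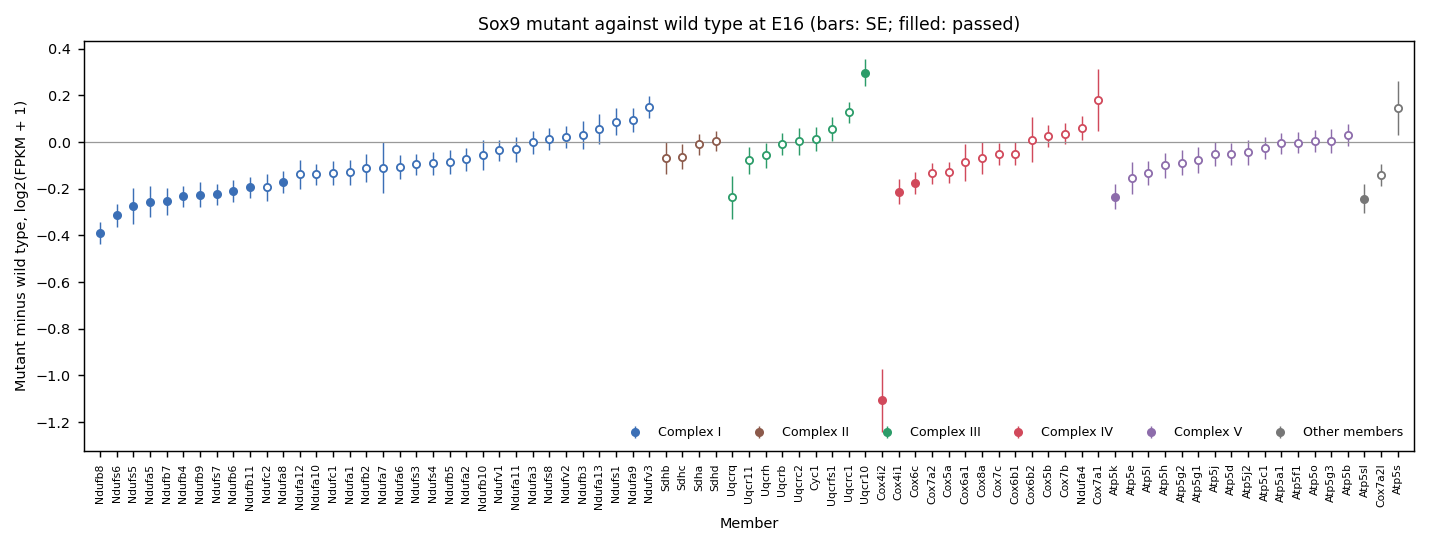
Mutant minus wild type at E16 on the log2(FPKM + 1) scale for 79 members, ordered by complex and difference, with bars for the SE of the limma fit and filled points where the test passed. Complex I runs from Ndufb8 (-0.39) to Ndufv3 (0.15), Cox4i2 lies lowest (-1.11) and Uqcr10 highest (0.30).

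Genes around the chain were read from lists of assembly factors, regulators and neighbours. The counts stand beside 23.6% of all records rising and 17.1% falling in TRAP, and 17.4% rising and 14.3% falling in the mutant. Of 6 tested chain components that the symbol rule leaves out, 5 rose in TRAP, among them the complex I acyl carrier Ndufab1 (0.69), cytochrome c (Cycs, 0.56) and the ATP synthase inhibitor Atpif1 (0.46), 1 fell (Ndufa4l2), and none passed in the mutant. Of 13 complex I assembly factors, 4 rose in TRAP and none fell. In the mutant 3 of them fell, Nubpl, which delivers iron-sulphur clusters (-0.48), Ndufaf6 (-0.33) and Ndufaf2 (-0.32), and 1 rose, Ndufaf7 (0.41). Of 7 factors of complexes II and III, Uqcc2 (-0.27) and Sdhaf1 (-0.34) fell in the mutant, and Uqcc2 rose in TRAP (0.62).

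Of 20 complex IV assembly factors, 9 rose and 1 fell in TRAP, with a median of 0.32. In the mutant Cox11 (0.26) and Cox14 (0.19) rose and Cox19 (-0.28) fell. None of 3 complex V factors passed in the mutant. Among regulators of mitochondrial biogenesis, 3 of 13 rose and 1 fell in TRAP, a share of risen genes near that of all records. In the mutant 1 of 12 rose and 1 fell: Esrra, the oestrogen-related receptor alpha, went from 9.35 and 9.81 FPKM to 17.4 and 18.2 in the mutant (0.83), and Gabpb1, a GABP subunit, fell by 0.29. Nrf1 differed by -0.19 in the mutant (adjusted p = 0.13). Of 13 tricarboxylic acid cycle genes, which supply the chain with NADH and succinate, 1 rose in TRAP, and in the mutant 1 rose, the fumarase Fh1 (0.21). Their median TRAP difference was 0.14.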

How the data were processed

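Each library's deposited table, from the authors, lists 24487 gene records with FPKM and confidence bounds, per the file headers. The submitters' processing notes name TopHat2 2.0.14, Bowtie2 2.2.3, Cufflinks 2.2.1, Cuffnorm and the build mm10. For reads that map to several genes, no handling is stated in the notes used here.

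FPKM values were used as deposited. limma 3.58.1 (R 4.3.3, eBayes with trend) was run on log2(FPKM + 1), which understates the change of low genes, keeping records that average at least 1 FPKM, two-sided, with Benjamini-Hochberg adjustment at 0.05. The mutant fit used the 4 E16 libraries. TRAP and stage came from 1 additive fit of the 4 E14 and E17 libraries, with 1 residual degree of freedom. A standard error was taken such that 2 of them reach the upper bound, and (FPKM / SE) squared gave the fragments. For 63 of 80 members the bounds behaved as counting error.

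Members and lists were chosen with earlier results of these data known. Named were isoform families, the most abundant member and the extremes of each complex, members below the filter, and up to 3 genes per list by smallest mutant p. Other members that passed, and other list genes named, were picked with their values already seen. 1 member, counted but neither named nor plotted, is not reported here. The fits were tested on simulated data, where the additive fit made more false calls than its threshold allows, mostly among records resting on few fragments. Of simulated log2 changes of 0.5 in size, 18% passed in the mutant fit, 30.2% in TRAP and 36.2% between stages. Of changes of 1, at least 97.1% passed. The simulated spread beyond counting was 1 fixed setting, not fitted to these replicates, so these shares need not hold for the members. In the real mutant fit Cox6c and Ndufa8 passed at -0.17. For small differences, not passing still does not mean no change. Alternatives were the pseudocount, the filter, 3 scalings, summed rows, all 8 libraries in 1 fit, left-out replicates and a replicate block.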

Additional observations from a re-analysis of the deposited data

Results flagged for a closer look

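In 5 members the 2 single-library differences had opposite signs, each above 0.1 in size on the log2(FPKM + 1) scale. With 1 library per stage and fraction, whether the paired differences differ was not tested. Atp5s, not a subunit of ATP synthase, was lower in TRAP than in whole lung at E14 (-0.23) and higher at E17 (0.18), and its E17 minus E14 difference was 0.25 in TRAP and -0.15 in whole lung. Cox4i2 differed by -0.11 between TRAP and whole lung at E14 and by 0.28 at E17. Between stages, Cox4i1 differed by -0.13 in TRAP and 0.17 in whole lung. Ndufs5, which its near-copy overlaps, differed by 0.23 in TRAP and -0.52 in whole lung, and Ndufs7 by -0.24 and 0.15.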

How the results depend on the processing

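With each library rescaled to a common FPKM total, in the mutant 0 members rose and 0 fell, the median became 0.39, and Atp5k (0.23), Cox4i1 (0.25) and Ndufb8 (0.071) turned positive without passing. In TRAP 1 rose and 0 fell, with Cox8a at -0.013, and between stages 1 rose, with a median of -0.20. Over records of at least 200 bases the mutant counts were 4 risen and 7 fallen (median 0.0035), and 2 fell between stages (median -0.014). With no filter, 8 fell in the mutant (1437 of all 17838 records did), 0 in TRAP (1911 of 18365), and 1 rose between stages (49 of 18365). Centred on the median, 26 fell in the mutant (2336 of 11872 records), 0 in TRAP (1954 of 12320), and 3 rose between stages (1002 of 12320). With a pseudocount of 0.1, 3 rose between stages (998 of 12320 records). With all 8 libraries in 1 fit 28 rose and 10 fell between stages, beside 3198 and 2919 of all 12320 records. The causes were not tested. Leaving out 1 E16 replicate left 0 to 2 risen and 3 to 14 fallen in the mutant; the lone library of its group is then assumed to vary like the other group. Replicate numbers did not pair the E16 libraries (correlation of deviations 0.0072), and with a replicate block 1 member rose and 13 fell. Cox4i2 fell in the mutant under every alternative except the common total (-0.68, not passed).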

Other observations

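The E16 wild-type libraries also allow a reading against the other TRAP libraries, although stage and the separate experiment cannot be told apart. Both E16 wild-type libraries lay above both E14 and E17 TRAP for 32 of 80 members (24.2% of all records did) and below both for 28 (29.5% of all did). Cox8a was among the former, at 1405 and 1365 FPKM against 794 in E14 and 939 in E17 TRAP, and Ndufs1 among the latter, at 17.1 FPKM in each against 27.5 and 22.8. Cox4i2 lay between the stages, at 22.3 and 30.05 FPKM against 7.97 and 65.2. Cox8a and Ndufs1 were chosen here after their values were seen.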
